A study of Mus musculus with 18 samples.

Results

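Cultures of E14 mouse embryonic stem (ES) cells at day 17 of neural differentiation were compared with cultures at day 16, both without added receptor ligand. The comparison took the 2 libraries that the labels give as day 17 and the 2 given as day 16, which is 4 of the 18 libraries of the series (9 groups of 2), and 17166 of 23420 listed genes were tested. The cells were wild type, were grown as embryoid bodies (floating aggregates) without leukemia inhibitory factor and with 5 µM retinoic acid over 4 days, and were then plated on laminin and poly-ornithine in N2 medium. The protocol names dimethylsulfoxide as vehicle, but the labels do not say which libraries received it. The file names mark both groups as controls, and add 24 h for day 17 only. Whether the day 17 cultures alone had a 24 h vehicle treatment is not stated. A second pair of groups, day 17 GW3965 and day 16 GW3965, came from the same differentiation with 1 µM of GW3965, an agonist of the liver X receptors (LXR). The labels give no length for that treatment; by the file names it lasted 24 h in the day 17 group and ran from day 8 in the day 16 group, so this pair is not a pure repeat of the step in time. The labels do not say whether the 2 libraries of a group came from separate cultures, so the p-values measure only the spread between these libraries, which may be technical.

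Gene counts totalled 22.53 and 16.75 M (mega) reads in the day 17 libraries and 22.67 and 34.08 M in the day 16 libraries. The files of the 2 days were not counted alike: the day 17 files set aside 29.04 and 23.18 M reads that had more than 1 alignment, and the day 16 files set aside 0. The files of the 2 days thus differ in counting as well as in age, and the design cannot tell counting and age apart. The known difference acts on genes whose reads align to several places. Whether the files differ in other ways is not given. The day 17 GW3965 files also set such reads aside and the day 16 GW3965 files did not, so both steps share this difference. Genes with 1% or more of their 50-base stretches (50-mers) found in a gene elsewhere are called multi-copy here, and a fall of such a gene is not read as a change of its RNA. Genes whose share could not be measured were classed by their names. The chi-square per gene between the 2 libraries of a group was 5.711 at day 17 and 4.795 at day 16, within the range of 2.858 to 10.74 of the groups other than day 16 GW3965, where it was 42.07. The model shares its estimate of the spread of each gene over all groups. P-values that use the day 16 GW3965 libraries thus do not carry that wider spread in full, and may be too small.

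The labels call all samples embryonic stem cells, and the markers go against this for the differentiated cultures. Pou5f1, a factor that ES cells need, had 6.32 and 5.95 CPM (gene counts scaled to library size) at day 17 and 21.9 and 16.1 CPM at day 16, while ES control libraries had 687.7 and 708.6 CPM. Gfap, the intermediate filament of astrocytes, and Tubb3, a tubulin of young neurons, were both above 150 CPM in all 4 libraries. The summed level of 20 mesenchyme and fibroblast genes was 17330 and 18470 CPM at day 17 and 18260 and 20440 CPM at day 16. Only 5 of the 13 genes of microglia and leukocytes passed the filter, and Tyrobp and C1qa had 0 counts in all 4 libraries. The libraries are of mixed cultures, in which fewer cells of a type and less RNA per cell cannot be told apart.

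As background, the immediate early genes, among them Fos, Egr1 and Nr4a1, are transcribed within minutes of growth factor signals, calcium entry or stress, and their proteins switch on later genes. In the integrated stress response, kinases that sense amino acid shortage, unfolded protein, viral RNA or heme loss phosphorylate the initiation factor eIF2, which slows translation but favours that of ATF4, a factor that turns on amino acid transport and synthesis genes and the feedback gene Trib3. Cholesterol synthesis genes such as Sqle, squalene epoxidase, are driven by SREBP2, which is released from the endoplasmic reticulum when sterols are scarce. Embryoid body cultures of this kind make neurons first and glia later.

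A gene was called changed at an adjusted p below 0.05 in a model across all genes and libraries. Between day 17 and day 16, 56.2% of tested genes were called, 26.8% as higher and 29.5% as lower, so a call alone says little about any one gene. Of the called genes, 639 were higher and 1575 lower by 2-fold or more. The median log2 fold change over all genes was -0.02. Both day 17 libraries lay above both day 16 libraries for 37.6% of genes, and below both for 40.1%. For the step with GW3965, 60.3% of genes were called, 31.6% as higher and 28.8% as lower, and the difference between the steps was called for 37% of genes, 20% with a more positive and 17% with a more negative change with GW3965.

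Fos, the DNA-binding partner of the Jun proteins in the factor AP-1 (chr12:85473890-85477273, plus strand, mm10), had 252.5 and 277.3 CPM at day 17, against 20.08 and 19.11 CPM at day 16. The day 17 libraries lay above every other library of the series, where Fos ranged between 5.764 and 24.6 CPM. The log2 fold change was 3.76 ± 0.137 (SE, n = 2 libraries a group, adjusted p = 1.40e-14). With GW3965 it was 0.17 (adjusted p = 0.298), and the difference between the steps was -3.58 (adjusted p = 2.2e-10).

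Trib3, a pseudokinase that restrains ATF4 (chr2:152337422-152344032, minus strand), had 215.6 and 202.7 CPM at day 17, against 11.89 and 14.89 CPM at day 16. The other 16 libraries ranged between 6.073 and 22.93 CPM, so the level at day 17 stood apart from the whole series for this gene too. Its log2 fold change was 3.95 ± 0.163 (SE, adjusted p = 1.01e-13), and with GW3965 it was -0.17 (adjusted p = 0.394). When both steps were averaged in a fit with day and GW3965 as additive terms, neither Fos (log2 fold change 1.98, adjusted p = 0.0511) nor Trib3 (1.90, adjusted p = 0.0981) was called. Among other genes named by rule, Jun, Atf3, Nr4a1, Npas4, Dusp5, Slc7a1, Ddit4, Wars, Herpud1, Abca1, Slc2a1, Hk2, Ankrd37, Vim, Hes5, S100b, Col1a1, Pou5f1, Trim66, Avil, Upp1 and Acot2 also had no call in that fit.

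Sqle (chr15:59315077-59331192, plus strand) was lower, with 60.61 and 61.35 CPM at day 17, against 156.6 and 153.5 CPM at day 16. These were the lowest 2 values of the series, since the other 16 libraries ranged between 104 and 193.2 CPM. The log2 fold change was -1.35 ± 0.0512 (SE, adjusted p = 2.73e-14), and with GW3965 it was -0.42 (adjusted p = 3.39e-07).

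Gfap (chr11:102887336-102900912, minus strand) had 2178 and 2530 CPM at day 17, against 561.6 and 589.1 CPM at day 16. It was the 1 gene of these 4 that rose in both steps: the log2 fold change was 2.03 ± 0.18 without ligand (SE, adjusted p = 8.21e-09) and 2.99 with GW3965 (adjusted p = 5.89e-11). The step was larger with GW3965 by 0.95 on the log2 scale (adjusted p = 0.0048). The level was not: with GW3965, Gfap had 1780 and 1276 CPM at day 17 and 250.2 and 135.3 CPM at day 16. On both days these values lay below those without ligand.

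**Figure D1:**
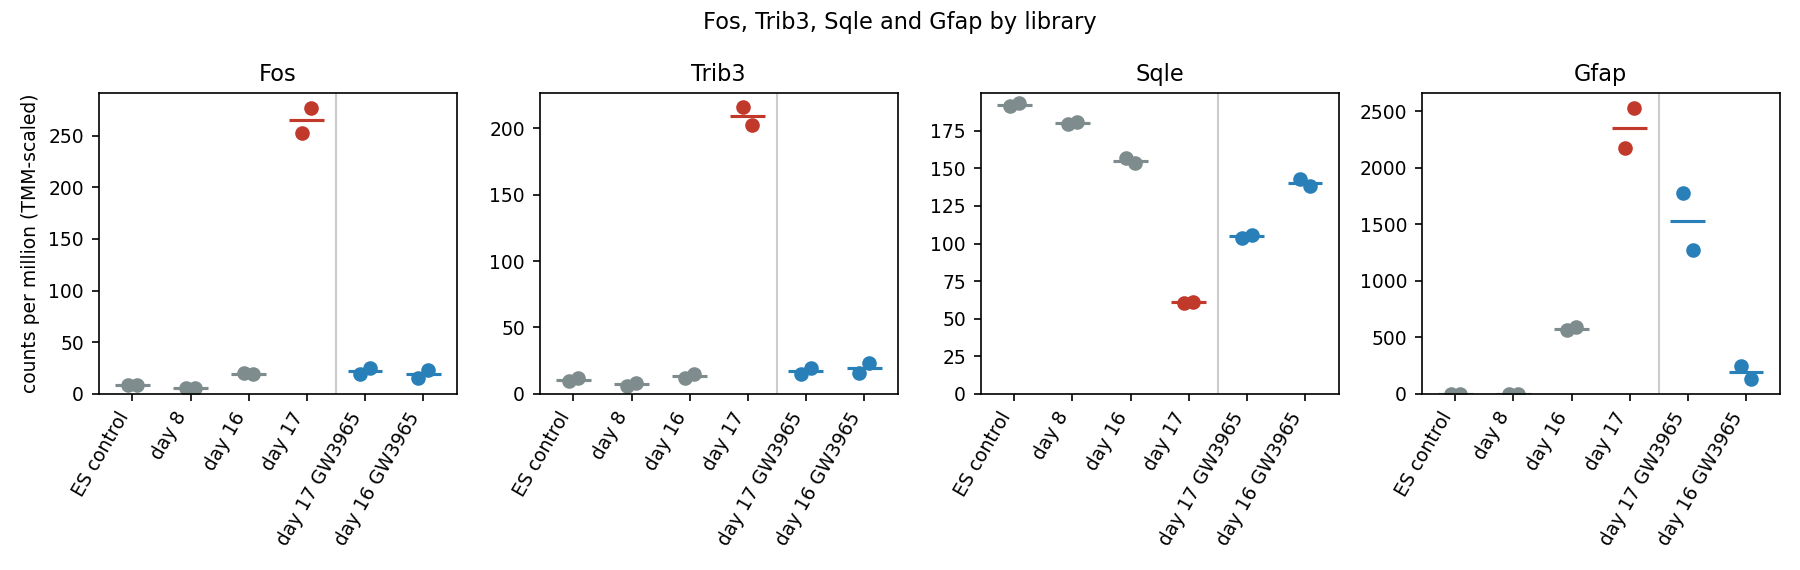
CPM of Fos, Trib3, Sqle and Gfap in each library (points) with group means (bars), for ES control cells, for days 8, 16 and 17 without ligand, and for the 2 GW3965 groups. Fos at 252.5 and 277.3 CPM and Trib3 at 215.6 and 202.7 CPM stood above all other libraries at day 17 without ligand, Sqle stood below them, and Gfap was high at day 17 with and without GW3965.

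Over the 9 group means, the called genes at 5 CPM or more whose log2 level was most like that of Fos were Acot2 (Pearson r = 0.991), Trib3 (0.98) and Dennd4a (0.978). For Trib3 they were Fosb (0.987), Fos (0.98) and Acot2 (0.979). For Sqle they were Anapc13 (0.984), Cep95 (0.983) and Agfg2 (0.979), and for Gfap they were Thbs2, Gas7 and Slc4a4 (0.997 each). These values describe 9 means of 2 libraries each, and carry no test.

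AP-1 genes rose at day 17. Of the 11 subunit and partner genes tested, 10 rose and 0 fell, with a median log2 fold change of 1.34, against 26.8% of all genes higher and a median of -0.02. Fosb, the closest relative of Fos, had 67.6 and 69 CPM at day 17 and 1.44 and 1.35 CPM at day 16, the largest rise of any gene that met the naming rule (5.62 ± 0.276, SE, adjusted p = 1.48e-12). Jun had 213.3 and 190.1 CPM at day 17 and 65.7 and 75.4 CPM at day 16 (log2 fold change 1.51), and Junb rose by 1.65 on the same scale. In each of these genes the 2 groups did not overlap. Batf3 was the member not called, at 1.58 and 1.75 CPM at day 17 and 1.19 and 1.62 CPM at day 16. With GW3965, 4 of the 11 rose and 1 fell, and the difference between the steps was called for 6, each with the more positive change without ligand; Junb was not among them (adjusted p = 0.21). In the fit that averaged both steps, 6 were higher, with a median of 0.72.

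The Egr, Nr4a and other activity-induced genes moved the same way. Of 44 tested, 36 rose and 1 fell, with a median log2 fold change of 0.88. Egr1, a zinc finger factor induced by growth factors, had 485.9 and 505.6 CPM at day 17, against 65.6 and 67 CPM at day 16 (log2 fold change 2.90 ± 0.101, SE, adjusted p = 6.94e-15). Nr4a1, an orphan nuclear receptor, had 176.4 and 157 CPM at day 17 and 19.5 and 19.9 CPM at day 16. Npas4, a factor that neurons induce on calcium entry, had 24.9 and 29 CPM at day 17 and 3.05 and 4.38 CPM at day 16. All 3 were thus several-fold higher in both day 17 libraries. Arc, a neuronal effector of synaptic activity, had 14.98 and 11.61 CPM at day 17 and 3.457 and 3.717 CPM at day 16, and Myc had 138 and 110.4 CPM at day 17 and 37.7 and 36.2 CPM at day 16. Gadd45b, a stress-induced growth regulator, was the 1 member that fell, with 10.7 and 11.6 CPM at day 17 and 13.9 and 16.1 CPM at day 16 (log2 fold change -0.44, adjusted p = 0.0247). It was not called by limma-voom, with offsets for GC content and length, without day 17 replicate 1 or without day 16 replicate 2. With GW3965, 20 of the 44 rose and 7 fell; the steps differed in 29 genes, with the change more positive without ligand in 23. In the fit that averaged both steps, 23 were higher and 0 lower.

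Feedback genes of the MAP kinase pathway rose as well, 11 of 14 with 0 lower. Spry1, a Sprouty inhibitor of receptor signalling, had 149 and 141 CPM at day 17 and 35.6 and 35.4 CPM at day 16. The log2 fold change of Spry1 was 2.03 without ligand and 1.10 with GW3965, and that of Spry2 was 1.08 and 0.81. In this list 9 of 14 genes rose and 1 fell with GW3965, and the difference between the steps was called for 4.

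Short pieces of the promoters of activity-induced genes are shown for the cyclic AMP response element, the site of the factor CREB, and the CArG box, the site of serum response factor, because both are textbook elements of immediate early genes. Windows from 250 bases before to 50 bases after the annotated start (RefSeq, GRCm38.p6, the build of mm10) were found for 30 of the 44 genes. The cyclic AMP response element TGACGTCA stood in 4 of the 30 (13.33%), against 3.24% of the tested genes with a window, and the CArG box stood in 4 (13.33%), against 1.64%. The cyclic AMP response element reads the same on both strands. The CArG box was searched as CCWWWWWWGG, where W is A or T, a pattern that is also the same on both strands. In Srf, Egr2 and Dusp5 a second match lay in the same or in another window. The pieces run 5′ to 3′ on the gene's strand with the match in capitals; the first 4 hold the cyclic AMP response element, the others the CArG box. A match is a description of letters and not a site of binding.
Dusp1 (chr17:26508597-26508626, minus strand): ggtagggcgggTGACGTCAccgcccggtca
Btg2 (chr1:134079303-134079332, minus strand): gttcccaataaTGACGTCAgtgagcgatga
Arl4d (chr11:101665504-101665533, plus strand): gccgcgtcgtgTGACGTCAcgagagggttt
Arl5b (chr2:15055188-15055217, plus strand): caggcgcccgcTGACGTCAgcgcgccgacg
Egr2 (chr10:67537787-67537816, plus strand): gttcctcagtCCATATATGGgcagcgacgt
Srf (chr17:46556225-46556254, minus strand): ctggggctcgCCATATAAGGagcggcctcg
Dusp5 (chr19:53529053-53529082, plus strand): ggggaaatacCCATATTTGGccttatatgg
Zfp36 (chr7:28379267-28379296, minus strand): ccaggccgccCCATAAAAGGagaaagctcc
All 8 of these genes were called higher at day 17, as were 36 of all 44 genes of the list. Whether a match goes with a rise was not tested. Dusp1, a phosphatase of MAP kinases, had 40.81 and 42.4 CPM at day 17 and 14.2 and 12.44 CPM at day 16, and Srf itself, the factor that binds the CArG box, had 121 and 100.7 CPM at day 17 and 48.89 and 48.04 CPM at day 16. The Fos window held no exact match to TGACGTCA or to the CArG box pattern. Partial forms, and sequence more than 250 bases before the start, were not searched. Whether Fos has such elements is therefore not answered here.

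Integrated stress response genes rose broadly: 35 of 40 rose, 4 fell, and the median log2 fold change was 0.95. Among the factors, Atf4 had 309.1 and 293.6 CPM at day 17 and 172.4 and 171.1 CPM at day 16 (log2 fold change 0.81). Its target and relative Atf3 had 50.7 and 42 CPM at day 17 and 7.9 and 8.54 CPM at day 16 (2.49). Atf5, translated like ATF4 when eIF2 is phosphorylated, had 476.4 and 441.7 CPM at day 17 and 46.5 and 49.2 CPM at day 16 (3.26 ± 0.13, SE, adjusted p = 5.81e-14). Each factor was higher in both day 17 libraries, and the change of Atf4 RNA was the smallest of the 3. Ddit3, which encodes the factor CHOP, rose by 0.92 and Cebpg by 1.43 on the log2 scale. Ppp1r15a, the phosphatase subunit that reverses eIF2 phosphorylation, had 134.8 and 120.7 CPM at day 17 and 27.7 and 30.78 CPM at day 16.

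The list includes amino acid transporters, of which Slc7a5 and Slc7a1 are given by sample. Slc7a5, the light chain of the leucine carrier, had 484.1 and 409.3 CPM at day 17 and 100.7 and 92.97 CPM at day 16, and Slc7a1, the arginine and lysine carrier, had 369.2 and 322.7 CPM at day 17 and 75.5 and 68.8 CPM at day 16. Among enzyme genes, the log2 fold change was 0.97 for Asns, asparagine synthetase, 0.95 for Psat1 of serine synthesis and 1.56 for Aldh1l2 of mitochondrial folate metabolism. Chac1, which degrades glutathione, had 51.52 and 44.67 CPM at day 17 and 13.21 and 11.84 CPM at day 16. Fgf21, a secreted hormone of nutrient stress, was low at both days, with 11.2 and 9.86 CPM at day 17 and 1.03 and 1.02 CPM at day 16. The 4 members that fell were Ddit4, an inhibitor of mTORC1 that hypoxia also induces (log2 fold change -1.28), the cystine carrier gene Slc7a11 (-1.04, multi-copy), the folate enzyme gene Mthfd1l (-0.45) and the cysteine synthesis gene Cth (-0.57). Gdf15 was not called, at 0.896 and 1.34 CPM at day 17 and 0.247 and 0.523 CPM at day 16. Leaving out the 8 multi-copy members gave 28 higher and 3 lower.

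With GW3965 the same list had 8 genes higher and 15 lower, with a median log2 fold change of -0.18. The difference between the steps was called for 34 of the 40 genes, against 37% of all genes, and in 33 of the 34 the change was more positive without ligand. Asns fell with GW3965 (log2 fold change -1.22), as did Chac1 (-0.81) and Atf3 (-0.83). In the fit that averaged both steps, 12 members were higher and 3 lower, with a median of 0.35.

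The promoters of these genes are printed because the element bound by pairs of C/EBP and ATF factors, TGATGNAA, has a defined sequence. It was searched on both strands in the windows found for 34 of the 40 genes. It stood in 11 of the 34 (32.35%), against 2.88% of the tested genes with a window and 4.51% of all genes with one. Whole windows are given for Trib3 and Chac1, and pieces of 30 bases for the other 9 genes, all 5′ to 3′ on the gene's strand with the match in capitals.
Trib3 (chr2:152344011-152344310, minus strand): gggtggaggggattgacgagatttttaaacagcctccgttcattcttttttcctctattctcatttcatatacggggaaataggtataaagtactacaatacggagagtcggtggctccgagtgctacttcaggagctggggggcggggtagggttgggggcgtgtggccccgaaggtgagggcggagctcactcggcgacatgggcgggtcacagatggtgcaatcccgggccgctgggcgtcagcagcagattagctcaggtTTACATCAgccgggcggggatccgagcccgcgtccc
Chac1 (chr2:119350992-119351291, plus strand): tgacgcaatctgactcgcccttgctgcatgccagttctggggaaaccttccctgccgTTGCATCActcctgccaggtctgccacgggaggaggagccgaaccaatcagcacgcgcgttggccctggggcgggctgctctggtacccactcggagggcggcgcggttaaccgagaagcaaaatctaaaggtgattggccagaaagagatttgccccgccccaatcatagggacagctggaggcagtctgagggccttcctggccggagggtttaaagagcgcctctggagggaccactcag
Atf3 (chr1:191183425-191183454, minus strand): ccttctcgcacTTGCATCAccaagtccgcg
Asns (chr6:7693214-7693243, minus strand): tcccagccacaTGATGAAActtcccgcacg
Fgf21 (chr7:45615611-45615640, minus strand): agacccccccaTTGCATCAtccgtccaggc
Jdp2 (chr12:85599372-85599401, plus strand): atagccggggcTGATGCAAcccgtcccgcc
Nupr1 (chr7:126625562-126625591, minus strand): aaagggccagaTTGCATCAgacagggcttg
Pck2 (chr14:55540152-55540181, plus strand): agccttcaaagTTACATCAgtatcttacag
Pycr1 (chr11:120643833-120643862, minus strand): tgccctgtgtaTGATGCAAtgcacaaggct
Slc7a11 (chr3:50443661-50443690, minus strand): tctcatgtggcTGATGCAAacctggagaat
Vldlr (chr19:27216809-27216838, plus strand): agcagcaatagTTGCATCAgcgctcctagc
In Trib3 the match began 15 bases after the annotated start, and in Chac1 it began 193 bases before it. A second match in Slc7a11 lay beside the one printed. Of the 11 genes with a match, 10 were higher at day 17, and Slc7a11 was lower. Of all 40 genes of the list 35 were higher, and whether a match goes with a rise was not tested.

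The cytosolic aminoacyl-tRNA synthetases, some of which are ATF4 targets, split. Of 20 tested, 6 rose and 10 fell; in the fit that averaged both steps 0 were higher. Aars had 502 and 477 CPM at day 17 and 286 and 273 CPM at day 16, and Nars, Wars, Yars and Eprs also rose, the log2 fold change of these 5 ranging between 0.63 and 0.92; in the fit that averaged both steps Wars had no call and the other 4 turned to -0.14 to -0.04 with none. Qars had 47 and 47.6 CPM at day 17 and 191 and 189 CPM at day 16, and Vars fell by 1.07 on this scale. With GW3965, 19 of 20 fell and 0 rose. Aars then had a log2 fold change of -1.04, and the difference between the steps for Aars was -1.85 (adjusted p = 4.7e-10).

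Chaperone and oxidative stress lists had members called in both directions, to be read against 26.8% of all genes higher and 29.5% lower. Of 24 genes of the endoplasmic reticulum unfolded protein response, 9 rose and 9 fell. Atf6, a sensor of that compartment, had 161 and 177 CPM at day 17 and 59.6 and 54 CPM at day 16, and Herpud1, a degradation factor, had 132 and 125 CPM at day 17 and 59.4 and 62.1 CPM at day 16. Pdia6, a disulfide isomerase, had 148 and 154 CPM at day 17 and 333 and 337 CPM at day 16. In the cytosolic heat shock list 5 of 17 rose (3 in the fit that averaged both steps) and 7 fell, 9 of the 17 being multi-copy. In the oxidative stress list 6 of 22 rose and 10 fell. Leaving out its 8 multi-copy members gave 4 higher and 6 lower. Hmox1, heme oxygenase, had 81.8 and 80.9 CPM at day 17 and 32.8 and 35.3 CPM at day 16. The shares of the heat shock and oxidative stress lists called higher lay near the 26.8% of all genes, which is no result about these genes.

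**Figure D2:**
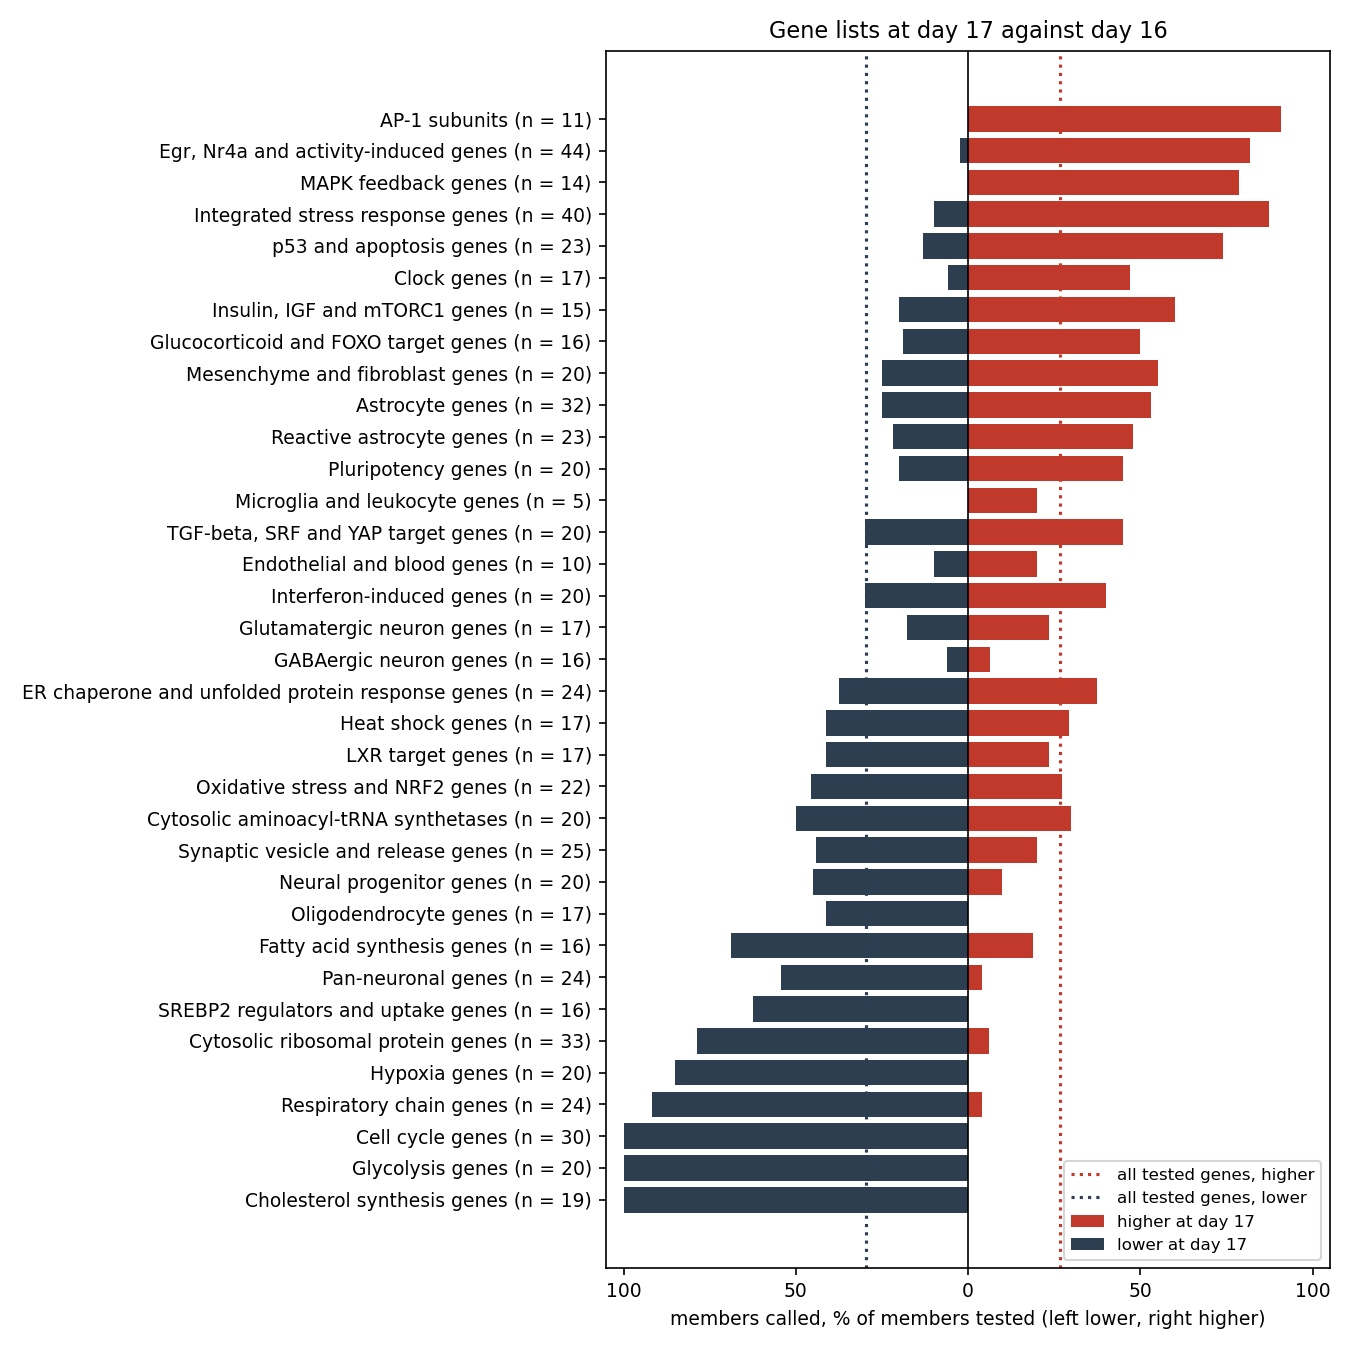
Percent of the tested members of each gene list that were called higher (right, red) or lower (left, dark) at day 17 against day 16, with dotted lines at the 26.8% and 29.5% of all tested genes. The AP-1 and integrated stress response lists lie farthest to the right, and the cholesterol synthesis, glycolysis and cell cycle lists reach all of their members on the left.

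Cholesterol synthesis genes fell at day 17: of the 13 tested members that are not multi-copy, 13 were lower. With the 6 multi-copy members, 19 of 19 were called lower, with a median log2 fold change of -1.37, against 29.5% of all genes lower. In the mevalonate arm, Mvd, a decarboxylase, had 14.5 and 16.7 CPM at day 17 and 52.7 and 53 CPM at day 16. In the sterol arm, Lss, lanosterol synthase, had 20.9 and 24.1 CPM at day 17 and 87.2 and 73.4 CPM at day 16. These levels did not overlap between the days. Idi1 and Fdps had larger changes (-2.85 and -2.20) but are multi-copy. At the other end, Hsd17b7 changed by -0.25 and Sc5d by -0.33.

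Of 16 genes for SREBP2 control and sterol uptake, 0 rose, 10 fell and 6 were not called, with a median log2 fold change of -0.32; in the fit that averaged both steps 1 was higher and 5 lower. Srebf2, which encodes SREBP2, had 120 and 103 CPM at day 17 and 216 and 213 CPM at day 16. Fads2, a fatty acid desaturase, fell by 2.06 on the log2 scale. In the fatty acid synthesis list, 3 of 16 rose and 11 fell, and 7 were lower in the fit that averaged both steps. Leaving out its 6 multi-copy members gave 2 higher and 6 lower. Fasn, fatty acid synthase, had 261 and 239 CPM at day 17 and 528 and 501 CPM at day 16.

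With GW3965, 15 of the 19 cholesterol genes fell and 2 rose, with a median of -0.51. The difference between the steps was called for 18 of 19, each with the larger fall without ligand. Of 17 LXR target genes in cultures without ligand, 4 were higher and 7 lower (4 lower in the fit that averaged both steps). Over all genes 26.8% were higher and 29.5% lower without ligand. The share of LXR targets called higher lay below that of all genes, which is no result about these genes. Leaving out the 4 multi-copy members gave 3 higher and 5 lower. Abca1, the cholesterol exporter, had 155 and 153 CPM at day 17 and 92.6 and 86.9 CPM at day 16.

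The SREBP element was searched as TCACNCCAC on both strands in the windows of 15 cholesterol genes. It stood in 1 of them, Hmgcs1 (6.67%), and in 0 of 11 windows of the SREBP2 control and uptake genes, against 1.51% of the tested genes with a window. In the astrocyte list it stood in 5 of 25 windows (20%), Gfap among them. The piece is given for reference, with the match in capitals.
Hmgcs1 (chr13:119690204-119690233, plus strand): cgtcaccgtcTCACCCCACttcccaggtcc
Hmgcs1, which makes the mevalonate precursor and is multi-copy, had 198.4 and 212 CPM at day 17 and 670.5 and 624.3 CPM at day 16.

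Cell cycle genes were all lower at day 17: 30 of 30, with a median log2 fold change of -1.18, and 16 of 16 without the multi-copy members. Top2a, a topoisomerase of dividing cells, had 149.4 and 145.2 CPM at day 17 and 583.3 and 520.3 CPM at day 16. Bub1, a kinase of the spindle checkpoint, had 13.3 and 13.8 CPM at day 17 and 67.8 and 56.9 CPM at day 16. Mki67 had 174 and 172.6 CPM at day 17 and 336.1 and 295.1 CPM at day 16 (log2 fold change -0.86). With GW3965, 16 of the 30 rose and 0 fell, and the difference between the steps was called for all 30, each more positive with GW3965. In the fit that averaged both steps, 9 members were lower, and Mki67 was at 0.0176 with no call.

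Hypoxia and glycolysis genes were lower at day 17. Of 20 hypoxia-induced genes, 17 fell and 0 rose, with a median of -0.92. Leaving out the 4 multi-copy members gave 13 lower and 0 higher. Slc2a1, the glucose carrier, had 96.4 and 81.9 CPM at day 17 and 322.7 and 261.3 CPM at day 16, and Ankrd37 had 1.24 and 1.75 CPM at day 17 and 10.3 and 13.1 CPM at day 16 (log2 fold change -3.00). Vegfa was not called, at 241.5 and 216.8 CPM at day 17 and 225.1 and 244.2 CPM at day 16. With GW3965, 10 of the 20 rose and 3 fell, and the difference was called for 19. In the fit that averaged both steps, 5 hypoxia genes and 13 glycolysis genes were lower. All 20 glycolysis genes were lower at day 17, but 11 are multi-copy, among them Gapdh, Pgk1 and Pgam1; the other 9 were lower too. Pfkl, a phosphofructokinase, had 62.5 and 64.5 CPM at day 17 and 266 and 242 CPM at day 16, and Hk2, a hexokinase, had 40.4 and 38.2 CPM at day 17 and 92.8 and 81.1 CPM at day 16.

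Respiratory chain genes fell in both steps, which share the difference in counting between the files of the days. Without ligand 22 of 24 fell and 1 rose, with a median of -0.84; with GW3965 23 fell and 1 rose, with a median of -0.85. Leaving out the 8 multi-copy members left 14 of 16 lower and 1 higher. Sdhb, a subunit of succinate dehydrogenase, had 46.2 and 48.7 CPM at day 17 and 119 and 121 CPM at day 16. Uqcrfs1 of the third complex was the member that rose, with 148 and 160 CPM at day 17 and 97.2 and 100.2 CPM at day 16. The difference between the steps was called for 10 of 24 (37% of all genes).

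**Figure D3:**
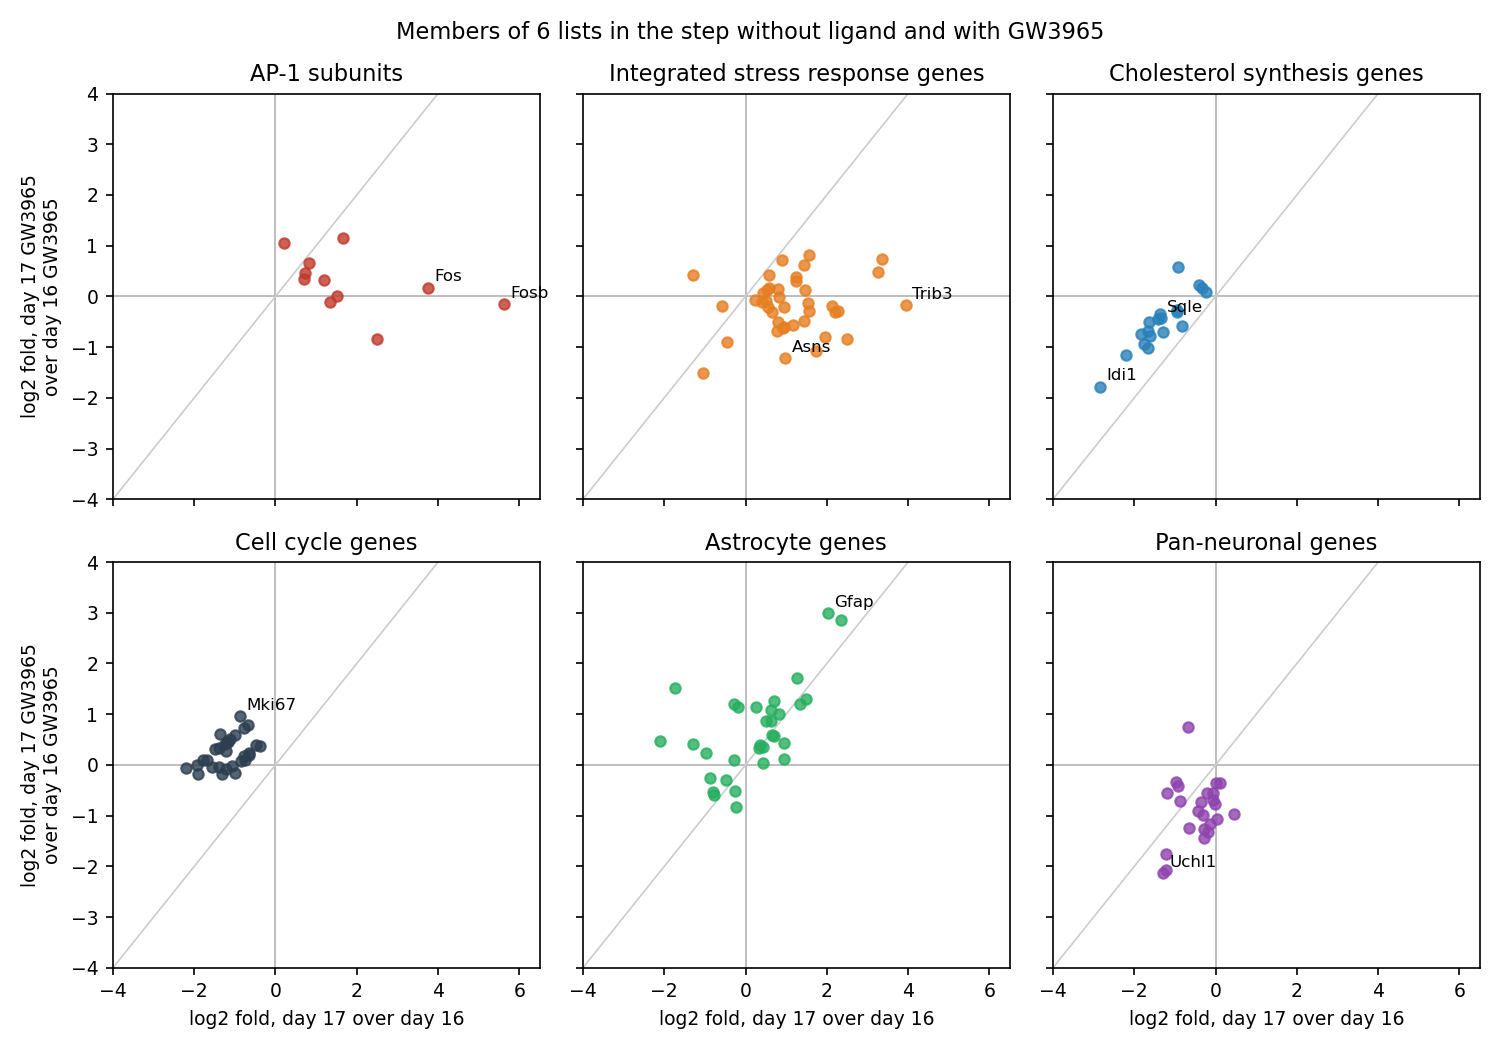
For the members of 6 lists, the log2 fold change of day 17 over day 16 without ligand (horizontal) and of day 17 GW3965 over day 16 GW3965 (vertical), with the line of equal change in grey. Fos, Fosb and Trib3 lie far to the right, with Fos and Trib3 near 0 on the vertical axis. Other stress response genes lie on both sides of 0 on that axis. Cell cycle genes lie left of 0 and mostly at or above 0 on the vertical axis, and Gfap lies high in both steps.

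Astrocyte genes rose in part. Of 32 tested, 17 rose and 8 fell, with a median log2 fold change of 0.40. Aqp4, the water channel of astrocyte end feet, had 108 and 132 CPM at day 17 and 22.8 and 24.2 CPM at day 16 (log2 fold change 2.35 ± 0.129, SE, adjusted p = 7.38e-12), and Gja1, connexin 43, rose by 0.83. The glutamate carriers Slc1a2 and Slc1a3 rose by 0.95 and 0.65. Vim, the filament of immature astrocytes and mesenchyme, fell: it had 659 and 625 CPM at day 17 and 1192 and 1315 CPM at day 16. Hes5, a Notch target of progenitors, had 3.93 and 3.67 CPM at day 17 and 19.4 and 13.8 CPM at day 16. S100b, Fgfr3, Ndrg2, Aldh1l1, Aldoc and Cpe were the other members that fell. With GW3965, 20 rose and 5 fell, and the steps differed in 16. Of 23 reactive astrocyte genes, 11 rose and 5 fell (2 lower in the fit that averaged both steps); Ptx3, a secreted pentraxin, had 91.4 and 70.7 CPM at day 17 and 7.98 and 8.26 CPM at day 16. The summed level of the astrocyte list was 6849 and 6988 CPM at day 17 and 4829 and 4982 CPM at day 16. Of this sum, Gfap alone had 2178 and 2530 CPM at day 17 and 561.6 and 589.1 CPM at day 16. Gfap thus made up most of the rise of the sum.

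Without ligand, neuronal and progenitor genes were lower more often than higher. Of 24 pan-neuronal genes, 1 rose and 13 fell, with a median of -0.30. Tubb3 had 177 and 152 CPM at day 17 and 386 and 366 CPM at day 16, and Uchl1, a neuronal hydrolase of ubiquitin, had 62.6 and 57.1 CPM at day 17 and 144 and 149 CPM at day 16. Rbfox1, a splicing factor of mature neurons, was the member that rose, by 0.45 on the log2 scale, and it was at -0.29 with no call in the fit that averaged both steps. Of 25 synaptic genes, 5 rose and 11 fell, against 0 and 17 in that fit. With GW3965, 23 of the 24 pan-neuronal genes fell and the neurofilament gene Nefm rose (log2 fold change 0.74), and 23 of 25 synaptic genes fell and 0 rose. The difference between the steps was called for 24 synaptic genes, each with the more negative change with GW3965. Of 20 progenitor genes, 2 rose and 9 fell without ligand, and 5 were lower in the fit that averaged both steps. With GW3965 the progenitor list went the other way, with 13 of the 20 higher and 3 lower. The difference between the steps was called for 16 progenitor genes, each with the more positive change with GW3965. The summed level of the pan-neuronal list was 2927 and 2950 CPM at day 17 and 3741 and 3709 CPM at day 16.

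Counts for markers of other cell types are to be read against 26.8% of all genes higher and 29.5% lower. Of 17 oligodendrocyte genes, 0 rose and 7 fell. Of 20 mesenchyme and fibroblast genes, 11 rose and 5 fell (2 lower in the fit that averaged both steps), with Lum at 381 and 405 CPM at day 17 and 206 and 218 CPM at day 16, and Col1a1 at 1471 and 1431 CPM at day 17 and 2893 and 3393 CPM at day 16. Without day 17 replicate 2, 4 of the oligodendrocyte genes were lower and 1 higher, and in the fit that averaged both steps 0 were lower and 4 higher. Among glutamatergic genes 4 of 17 rose (2 without day 17 replicate 2 or without day 16 replicate 1) and 3 fell (1 without day 16 replicate 2), and among GABAergic genes 1 of 16 rose (2 without day 16 replicate 2) and 1 fell. The fit that averaged both steps gave 1 higher and 7 lower for glutamatergic genes and 0 higher and 5 lower for GABAergic genes. Of 10 endothelial and blood genes, 2 rose and 1 fell, against 1 higher and 0 lower without day 17 replicate 2, 1 higher and 2 lower without day 16 replicate 1, and 1 of each without day 17 replicate 1; the fit that averaged both steps gave 0 higher and 1 lower. For the glutamatergic, GABAergic and endothelial lists the shares called higher and lower lay below those of all genes, which is no result about these markers. The part of these shifts in cell type markers in the results above was not tested.

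Falls of the most extreme size followed shared sequence. Among genes with no shared 50-mer the median log2 fold change was -0.02, while it was -1.30 in 154 genes with 50 to 90% of 50-mers shared and -5.47 in 33 genes with 90% or more. The step with GW3965, whose day 17 files also set aside reads aligned more than once, gave -0.80 and -5.65 for the same bins. Calls over all multi-copy genes went both ways: 60.2% of all multi-copy genes were called, 26.9% as higher and 33.4% as lower, against 55.3% of the other genes, 26.7% as higher and 28.6% as lower. Of 75 genes in which all 4 day 17 libraries lay at least 4-fold below all 14 others, 70 were multi-copy (93.3%, against 19.3% of genes at 5 CPM or more), and 0 genes lay as far above. Of the cytosolic ribosomal protein genes 32 of 33 tested were multi-copy, and the 26 called lower are not read as a change of their RNA.

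**Figure D4:**
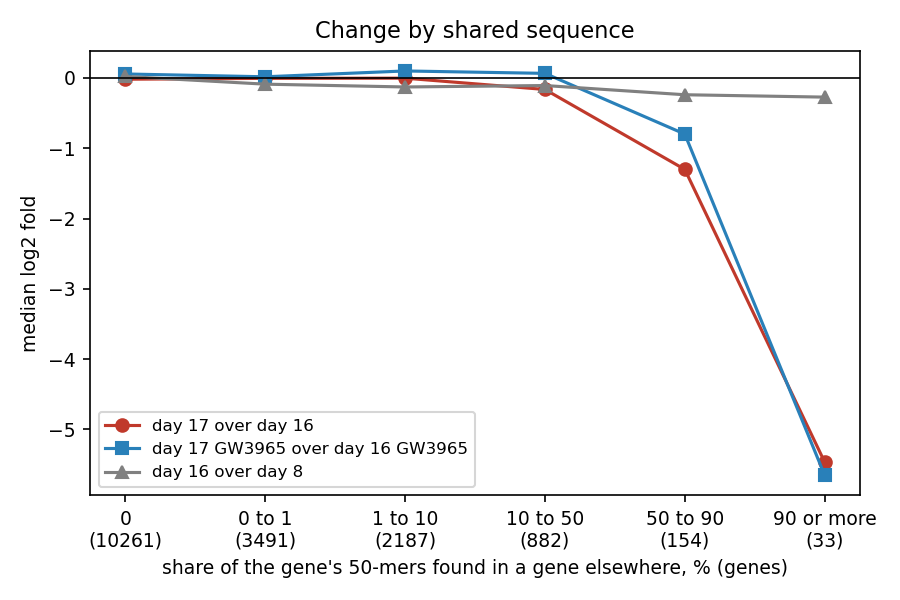
Median log2 fold change of tested genes grouped by the percent of their 50-mers found in a gene elsewhere, with the number of genes in brackets, for day 17 over day 16 (red), day 17 GW3965 over day 16 GW3965 (blue) and day 16 over day 8 (grey). Both steps into day 17 fall to -5.47 and -5.65 at 90% or more, while the step between days whose files list no such reads stays near 0.

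The largest rises among genes not classed as multi-copy were Fosb, Apobr, Trib3, Fos, Trim66, Fgf21, Ptx3, Atf5, Tnfsf15 and Avil, with log2 fold changes of 3.22 to 5.62. Apobr had 49.6 and 38.5 CPM at day 17 and 2.1 and 2.64 CPM at day 16, and Trim66 had 43.2 and 39.9 CPM at day 17 and 3.79 and 3.55 CPM at day 16. Among the largest falls, Erdr1 had 0 counts in both day 17 libraries and 562 and 771 counts at day 16, which is at least 146-fold lower against a floor of 3 counts per library. Crip1 had 3 and 0 counts at day 17 and 289 and 385 counts at day 16, and Atp5k, LOC100861615 and Ssbp4 were also low at day 17. Erdr1 and LOC100861615 had no match in the annotation, so their shared sequence was not measured. These 5 were also low in day 17 GW3965, at 0 to 4.421 CPM, and whether copies outside the annotated genes share their reads was not tested. The other 5 were Ndufa4l2, Ankrd37, Gipr, Tnnt2 and Upp1. Ndufa4l2, a hypoxia-induced subunit homologue, had 0.768 and 1.57 CPM at day 17 and 13.1 and 11.1 CPM at day 16, and was not called with GW3965 (log2 fold change -0.30, adjusted p = 0.32).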

How the data were processed

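The deposited files hold read counts per gene symbol, made by the authors, for 18 libraries. Per the submitters' processing notes, reads were aligned to mm10 and TopHat2 2.0.7, Cufflinks 2.0.2, HTSeq 0.6.0 and Cuffdiff 2.0.2 were used; strand setting and annotation are not given in the sources used here. The 5 summary lines of each file, such as reads with no gene (42.14 to 43.36% at day 17, and 63.4 to 63.61% once reads aligned more than once are set aside), stayed out of library sizes. Total gene counts ranged between 16.75 and 44.79 M (mega) reads per library.

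With R 4.3.3 and edgeR 4.0.16, 17166 genes passing filterByExpr were scaled by TMM and fitted with a quasi-likelihood model of 9 groups (9 residual degrees of freedom). Tests were two-sided, with Benjamini-Hochberg adjustment over all genes and a threshold of 0.05. CPM values are scaled by TMM, and SE are those of the fitted log2 fold changes. The floor for a count of 0 was 3 counts and covers counting error only. The members, markers and gene lists were chosen with earlier results of these data known, so a list is described by counts and medians without a test of its own.

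Symbols were matched to GENCODE M21 (98.47% of 23420). Shared sequence was the percent of a gene's 50-mers found in an annotated gene elsewhere; no genome sequence was used. Promoter windows came from RefSeq, GRCm38.p6.

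Named by rule were Fos, Trib3, Sqle and Gfap, the 10 largest rises and falls at 5 CPM or more among called genes not classed as multi-copy (genes with no annotation match, such as Erdr1 and LOC100861615, cannot be classed and were kept) whose groups did not overlap, up to 5 called members per list and direction, and up to 3 genes most like each marker. Some genes that this rule names are not reported here. Members named for a promoter match, or to account for a list or a pathway step, were chosen after their values were seen.

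Same-numbered libraries of the 2 days did not deviate together (correlation 0.0691), so numbers were not used as pairs. Alternatives were no filter, a stricter filter, DESeq2 1.42.0 (size factors, Wald test), limma-voom 3.58.1, fits of fewer libraries, a replicate block, leaving out each library, leaving out multi-copy genes, offsets for GC content and length, additive terms for day and GW3965 and, chosen after seeing the data, a fit without the day 16 GW3965 libraries. The code was tested on simulated counts with known changes.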

Additional observations from a re-analysis of the deposited data

Results flagged for a closer look

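For the 4 marker genes the step into day 17 differed between cultures with GW3965 and cultures without ligand, by a test of the difference itself in the model of all genes. The log2 difference, GW3965 minus no ligand, was -3.585 for Fos (adjusted p = 2.2e-10), -4.121 for Trib3 (adjusted p = 2.6e-10), 0.9252 for Sqle (adjusted p = 1.1e-08) and 0.9541 for Gfap (adjusted p = 0.0048). The length of the GW3965 treatment differs between its day 17 and day 16 groups by the file names, and its part in these differences was not tested. These p-values also do not carry the wider spread of the day 16 GW3965 libraries in full.

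The day 17 files set aside 29.04 and 23.18 M (mega) reads aligned more than once, and no comparison uses these reads. Both day 16 files set aside 0. That 0 belongs to how the files were counted, and does not show that the day 16 libraries had no such reads.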

How the results depend on the processing

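Over 16 alternatives the number of genes called between day 17 and day 16 ranged between 7602 (multi-copy genes left out) and 9867 (offsets for GC content and length, 8876 of them called in the same direction as in the 9654), and no alternative moved it by over 1.5 times. Leaving out 1 library gave 8380 to 8526 calls. A replicate block gave 9522 calls, but the shared numbers do not pair the libraries. With day and GW3965 as additive terms, which averages both steps, 8339 genes were called, 80 of 253 named genes were reversed or no longer called, and 31 lost the call in another alternative. Reversed in that fit alone were Gadd45b (log2 fold change 0.0755), Aars (-0.14), Yars (-0.12), Nars (-0.12), Eprs (-0.0403), Socs3 (0.48), Mki67 (0.0176), Rbfox1 (-0.29), Gria2 (-0.19), Slc17a6 (-0.13), Sparc (0.0927), Lin28a (0.34), Nanog (0.89), Sall4 (0.54), Sesn1 (0.0340), Oas1a (0.23) and Igfbp2 (0.0460). Over 5 equal classes of GC content, the median log2 fold change was 0.09 in the lowest and -0.19 in the highest. With 2 libraries a group, small changes may be missed.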

Other observations

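Counts for genes that the lists above leave out are to be read against 26.8% of all genes higher and 29.5% lower. For the step with GW3965 these shares were 31.6% and 28.8%. Of 23 p53 and apoptosis genes, 17 rose and 3 fell, with a median log2 fold change of 0.67. Zmat3, an RNA-binding p53 target, had 327 and 366 CPM at day 17 and 159 and 153 CPM at day 16, and Phlda3, an Akt inhibitor that p53 induces, had 104 and 106 CPM at day 17 and 41.2 and 46.2 CPM at day 16. Both rose with GW3965 as well, by 0.92 and 0.74 on the log2 scale. Of 15 insulin, IGF and mTORC1 genes, 9 rose and 3 fell (1 lower in the fit that averaged both steps). Igf1 had 377 and 416 CPM at day 17 and 234 and 280 CPM at day 16, and Igfbp5, an IGF-binding protein, had 3686 and 4451 CPM at day 17 and 2081 and 2219 CPM at day 16.

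Of 20 interferon-induced genes, 8 rose and 6 fell without ligand, and 17 rose and 0 fell with GW3965; in the fit that averaged both steps 10 were higher and 0 lower. Oasl2 had 97.4 and 106 CPM at day 17 and 41.1 and 49.1 CPM at day 16, and Irf1, a factor of the same response, had 20.4 and 21.7 CPM at day 17 and 36.2 and 41.1 CPM at day 16, with no call in that fit (log2 fold change -0.12). Of 17 clock genes, 8 rose and 1 fell, and without day 17 replicate 1, 5 rose; without any one of the 4 libraries 0 fell, and the averaged fit gave 4 higher and 0 lower. Of 16 glucocorticoid and FOXO targets, 8 rose and 3 fell (1 lower in the averaged fit), and of 20 TGF-beta, SRF and YAP targets, 9 rose and 6 fell. Without ligand, the shares of the interferon and of the TGF-beta, SRF and YAP lists called lower lay near the 29.5% of all genes. Of 20 pluripotency genes, 9 rose and 4 fell without ligand, and 19 rose and 1 fell with GW3965. Without ligand, 5 rose without day 17 replicate 1 and 4 without day 16 replicate 2, and 2 fell without day 16 replicate 1; the averaged fit gave 10 higher and 0 lower. Lin28a, an RNA-binding protein of stem cells, had 14.5 and 10.8 CPM at day 17 and 45.8 and 26.4 CPM at day 16, and its step differed by 3.78 on the log2 scale between GW3965 and no ligand (adjusted p = 4.2e-08); the averaged fit gave it 0.34 with no call.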
